A study of Mus musculus with 62 samples.

Results

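Heat shock proteins and the DNAJ proteins that work with them are the general protein-folding machinery of the cell, and their transcripts were followed here in the tibialis anterior, a leg muscle made mostly of fast fibres, of mice with and without melanoma. Members were taken by gene symbol, as every Hspa, Hspb, Hspd, Hspe, Hsph and Hsp90 gene and every Dnaja, Dnajb and Dnajc gene, without pseudogenes and binding proteins. This gave 73 of 47643 gene symbols. By family they are 14 HSP70 and HSP110 genes, 3 HSP90 genes, 9 small heat shock protein genes, 2 chaperonin genes, 4 DNAJA genes, 13 DNAJB genes and 28 DNAJC genes. Hspb11 and Hspbap1 enter the small heat shock protein family by symbol alone. Levels are in TPM (a library's transcripts scaled to a fixed total, so a share of it). A gene was tested where its 62-library average reached 1 TPM, and 64 of the 73 members were. The other 9 members (Dnajb3, Dnajb7, Dnajb8, Dnajb13, Dnajc5b, Dnajc5g, Dnajc6, Dnajc22 and Hspb9) had means below 0.1 TPM, and among them Dnajc22 reached 1.87 TPM in a single library.

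The mice were 2-month-old females in 3 treatments, namely injection of cachectic melanoma cells (CAC), injection of non-cachectic melanoma cells (NCAC) and mock injection (Con). Muscle was taken 2, 4, 6 and 8 weeks later, which makes 12 groups of 5 libraries each, apart from 7 libraries for CAC at 8 weeks. The sample labels give the strain as C57BL6/J, whereas the series' design text names NCI Ath/nude mice, a strain that lacks a thymus and so most T cells, and the files do not settle which holds. The labels call the libraries biological replicates without saying which animal each came from, so p-values measure the spread between these libraries. The comparison of CAC with Con asks what changes as wasting develops, and that of CAC with NCAC asks what goes with cachexia beyond carrying melanoma cells. CAC and NCAC differ in the cells injected, so cachexia and any other difference between those cells cannot be told apart.

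HSP70 proteins bind unfolded stretches of other proteins in a cycle driven by ATP, DNAJ proteins deliver those clients and trigger the ATP step, and HSP90 proteins act on clients that are nearly folded. Separate sets serve the cytosol, the endoplasmic reticulum (ER), where secreted and membrane proteins fold, and the mitochondrion. The cytosolic inducible genes are driven by heat shock factor 1 (HSF1) when damaged proteins build up, and the ER set by the unfolded protein response. Small heat shock proteins hold damaged proteins without ATP, and in muscle several of them sit on the sarcomere and on actin-crosslinking proteins.

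The values are shares of a fixed total, and that total was made up differently in the groups. Transcripts encoded by the mitochondrial genome took 38.6 ± 3.39% of all TPM in CAC and 47.9 ± 2.74% in Con at 6 weeks (SD, n = 5 each), and 37.7 ± 2.43% in CAC (n = 7) and 48.8 ± 7.07% in Con (n = 5) at 8 weeks. Across all 11107 genes tested, the median log2 change of CAC over Con was 0.38 at 6 weeks and 0.46 at 8 weeks. Changes below are therefore given as deposited and, in most cases where it bears on the call, after the TPM were rescaled by median-of-ratios size factors. Rescaling sets that median shift aside. Marker sums of other cell types also moved with CAC: at 8 weeks 4 fibroblast genes summed to 229.8 to 606.3 TPM in CAC and 166.7 to 304.1 TPM in Con, and 5 macrophage and leukocyte genes to 50.7 to 151.0 TPM in CAC and 29.4 to 58.0 TPM in Con. At the same week 5 endothelial genes summed to 146.6 to 192.5 TPM in CAC and 83.3 to 120.1 TPM in Con, and 5 fat genes to 571.9 to 796.9 TPM in CAC and 381.2 to 410.1 TPM in Con. A sum of 5 blood genes was 147.0 to 14744 TPM in CAC and 324.4 to 1169 TPM in Con at 8 weeks, with the 14744 TPM in replicate 3 of CAC and the next highest CAC value 999.5 TPM, and 1155 to 2685 TPM in CAC and 539.4 to 1598 TPM in Con at 4 weeks. Each of these genes was above 0 in every library of the groups named, and the part of these cell types in the results below was not tested. In whole muscle fewer cells of a type and less RNA per cell cannot be told apart. The labelled tissue held, since 6 muscle genes summed to 77149 ± 14713 TPM in CAC at 8 weeks (n = 7) and 77558 ± 17224 TPM in Con (n = 5), and melanoma genes were scarce. The 6 melanoma genes summed to 1.42 to 2.53 TPM in CAC and 0.808 to 1.501 TPM in Con at 6 weeks, and to 0.983 to 2.20 TPM in CAC and 0.591 to 1.81 TPM in Con at 8 weeks. Nearly all of that sum was Sox10, with a mean of 2.07 TPM in CAC and 1.06 TPM in Con at 6 weeks, while Pmel, Mlana, Tyr, Dct and Tyrp1 each averaged below 0.1 TPM in these groups and Tyr was listed at 0 in every CAC and Con library at 6 weeks. The part of melanoma cells in the results was not tested. The 3 libraries that lay farthest out on the first principal component of all genes were replicate 1 of CAC at 6 weeks and replicates 1 and 6 of CAC at 8 weeks. Where a member's change in CAC over Con is given below and its call or direction differs without them, that is said beside it.

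Members changed in CAC at 6 and 8 weeks, and as deposited about as often as genes at large. A change was called at an adjusted p under 0.05 in a limma fit of log2(TPM + 1) over all 12 groups, adjusted over the 11107 genes. At 6 weeks 37 of 64 members (57.8%) rose in CAC over Con as deposited and 0 fell, where 60.7% of all genes rose and 3.26% fell. After rescaling, 11 members (17.2%) rose and 12 (18.8%) fell, against 16.9% and 18.1% of all genes. At 8 weeks 41 members (64.1%) rose and 1 fell as deposited, where 69.4% of all genes rose and 5.09% fell. After rescaling, 8 members (12.5%) rose and 21 (32.8%) fell at 8 weeks, where 24.9% of all genes rose and 24.2% fell. Of these 21, 2 (Dnajc18 and Dnajc30) had been called higher as deposited, and such turns were not counted over all genes. The members' median log2 change was 0.37 at 6 weeks and 0.42 at 8 weeks as deposited, and 0.01 and -0.05 after rescaling. Of the members that rose as deposited, 32 did so at both weeks, which is 86.5% of the 6-week calls and 78.0% of the 8-week calls, though both weeks have their own Con libraries. How many of all genes rose at both weeks was not counted. With 60.7% and 69.4% of all genes called higher, the overlap is not read as a trait of members. The shares of members called lie near those of all genes at 6 weeks and as deposited at 8 weeks, while after rescaling at 8 weeks fewer members rose and more fell, a gap that was not tested.

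**Figure D1:**
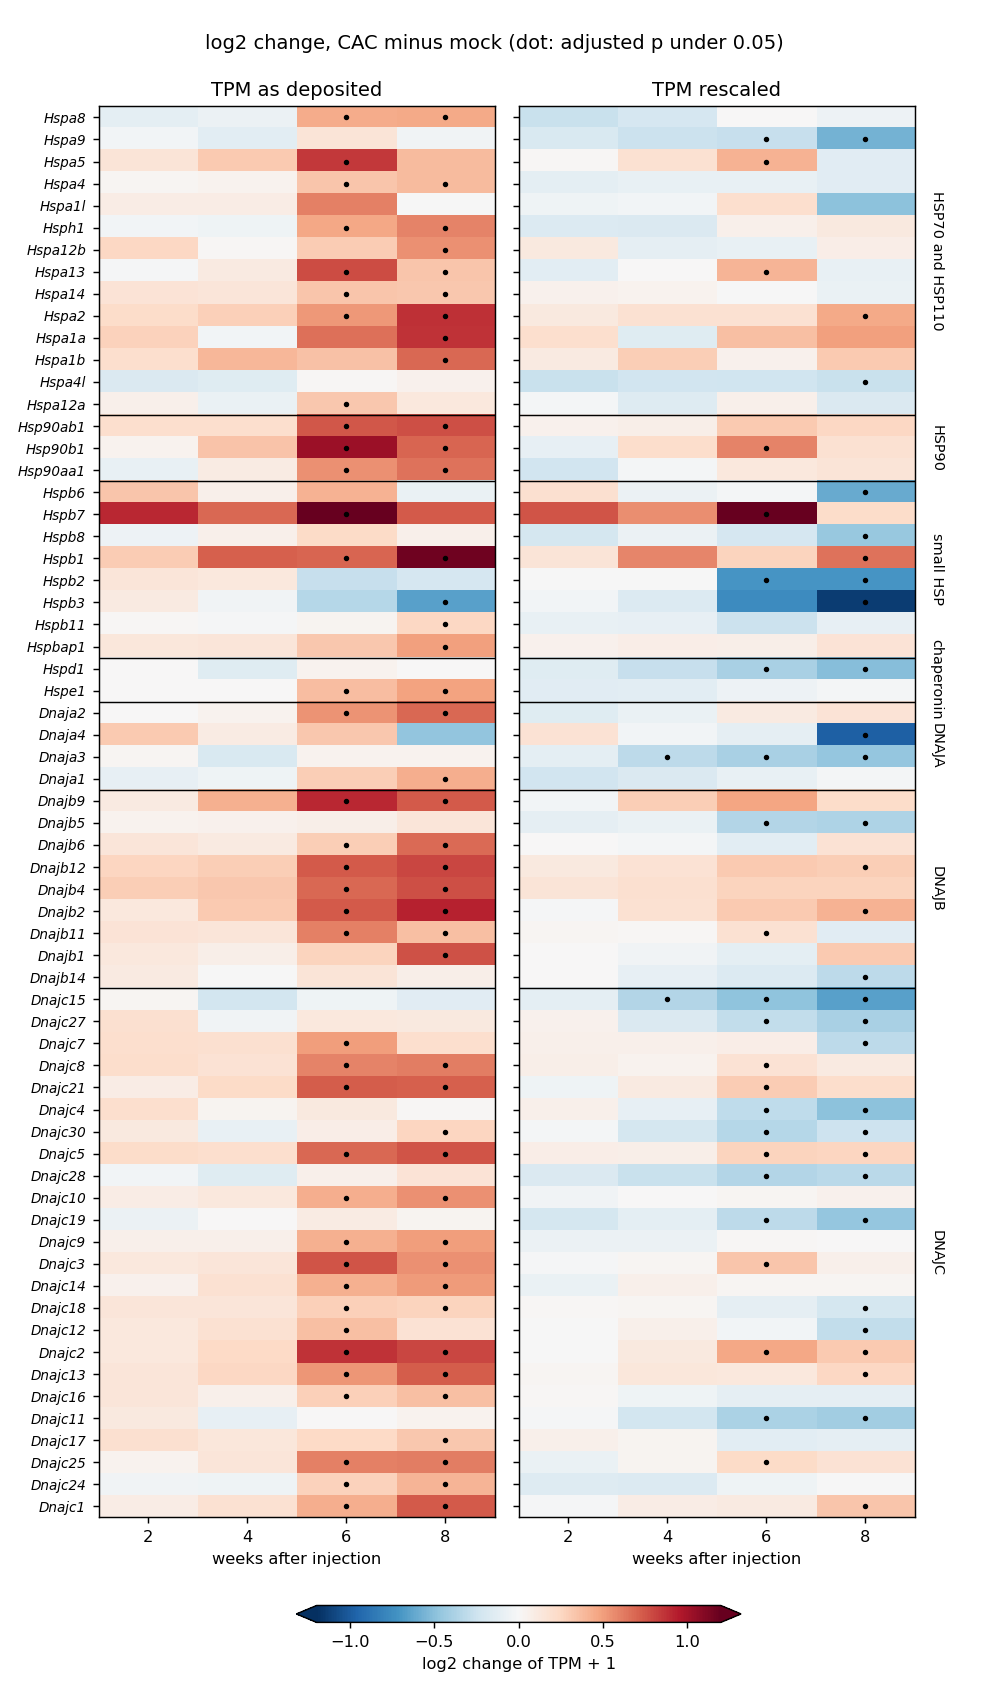
Each row is a tested member and each column a week, and the colour gives the log2 change of CAC minus Con in TPM + 1, as deposited on the left and after rescaling on the right, with a dot at a limma adjusted p under 0.05. Dots are absent at 2 weeks, and the 37 and 41 increases at 6 and 8 weeks as deposited become 11 and 8 after rescaling.

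No member was called in CAC over Con at 2 or 4 weeks as deposited, where 0.0540% of all genes rose and 0% fell at 2 weeks, and 0.891% rose and 0.0450% fell at 4 weeks. At an unadjusted limma p under 0.05 there were 2 of 64 members at 2 weeks and 6 at 4 weeks, and 954 and 1575 of all 11107 genes. Exact permutation tests of single genes at the same level gave 5 and 8 members. They were not run over all genes, so these counts have no share of all genes beside them. After rescaling, 2 mitochondrial members fell at 4 weeks, Dnaja3 with a log2 change of -0.31 (limma adjusted p = 0.0130) and Dnajc15 with -0.35 (adjusted p = 0.0488), where 0.882% of all genes rose and 0.612% fell. The CAC group at 4 weeks was uneven. Hspb1, which encodes the small heat shock protein HSP27, had 108.8, 553.6, 182.1, 390.7 and 120.0 TPM in CAC at 4 weeks and 119.3, 162.9, 135.8, 141.2 and 112.8 TPM in Con. The BiP gene Hspa5 had 65.3, 109.3, 70.9, 123.5 and 66.8 TPM in the same CAC libraries and 85.7, 54.5, 72.1, 64.0 and 64.5 TPM in Con. Replicates 2 and 4 are high for both genes, and in these 2 libraries 9 of 10 ER members lay above every Con library of that week, while in the other 3 CAC libraries 0, 0 and 2 did. In both, 3 of 3 HSP90 genes and 7 of 13 textbook HSF1 targets also lay above. Replicates 1, 3 and 5 had 0 HSP90 genes and 0, 3 and 0 of these targets above. Low mitochondrial members were not particular to replicates 2 and 4. Of 9, 6 and 7 lay below every Con library in these 2, and 6, 4 and 4 in replicates 1, 3 and 5. Over all genes replicates 2 and 4 stood at 33.5 and 22.4 on the first principal component, against -13.7 to 2.20 in the other 3. The share of all genes above every Con library was not counted.

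In NCAC no member was called over Con at any week under either scaling, and at an unadjusted limma p under 0.05 there was 1 at 2 weeks and 0 at the 3 later weeks, with the same counts by exact permutation tests. Of all 11107 genes, 281, 143, 118 and 166 reached that unadjusted limma level at 2, 4, 6 and 8 weeks. At the adjusted level 0.162% of all genes fell at 2 weeks, 0 were called at 4 and 6 weeks and 0.00900% rose at 8 weeks as deposited. After rescaling 0.0180% rose and 0.189% fell at 2 weeks. A sum over all members came to 3867 ± 739 TPM in NCAC and 3945 ± 367 TPM in Con at 6 weeks, and to 4699 ± 722 TPM in NCAC and 4402 ± 703 TPM in Con at 8 weeks (SD, n = 5 each). In CAC the sum was 6187 ± 848 TPM at 6 weeks (n = 5) and 6176 ± 1542 TPM at 8 weeks (n = 7), with no overlap with Con or NCAC at 6 weeks.

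Members were also grouped by role. Each group's counts can be set beside the shares of all genes called, which at 6 and 8 weeks were 60.7% and 69.4% higher as deposited, and after rescaling 16.9% and 24.9% higher and 18.1% and 24.2% lower. No difference from these shares was tested. In this grouping a gene can stand in more than 1 group (Hsp90b1 is in the ER and HSP90 groups, Hspd1 and Hspe1 in the mitochondrial and heat-inducible groups). The ER set gave the largest median of the role groups that hold more than 3 genes at 6 weeks. It was a chosen list (Hspa5, Hspa13, Hsp90b1, Dnajb9, Dnajb11, Dnajb12, Dnajb14, Dnajc1, Dnajc3 and Dnajc10) and need not hold every member that acts in the ER. Of its 10 members, 9 rose in CAC over Con at 6 weeks as deposited, with a median log2 change of 0.74 against 0.38 over all genes, and 5 rose after rescaling. At 8 weeks 8 rose as deposited with a median of 0.55, while after rescaling 2 rose, 1 fell and the median was 0.05. Hspa5 encodes BiP, the HSP70 of the ER. It had 189.5, 131.9, 108.3, 134.2 and 110.7 TPM in CAC at 6 weeks and 89.0, 67.0, 64.7, 80.0 and 66.3 TPM in Con, so that every CAC library was above every Con library. Its log2 change was 0.85 ± 0.19 (SE; limma adjusted p = 0.000266), or 0.42 after rescaling (adjusted p = 0.0321). At 8 weeks Hspa5 ranged over 60.3, 93.2 and 138.5 TPM (lowest, median and highest of 7) in CAC, and Con had 76.0, 86.4, 67.1, 73.9 and 66.5 TPM. The 8-week groups overlapped, and the log2 change of 0.38 ± 0.18 did not pass (limma adjusted p = 0.0542), though it did without replicate 3 of CAC, the library with the high blood sum (0.49, adjusted p = 0.0125), or replicate 2 of Con (0.43, adjusted p = 0.0385).

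Hsp90b1, which encodes the HSP90 of the ER (GRP94), had 145.6, 85.2, 83.2, 96.6 and 76.9 TPM in CAC at 6 weeks and 52.6, 45.2, 44.3, 49.7 and 39.3 TPM in Con. It rose by 1.03 ± 0.17 on the log2 scale as deposited (limma adjusted p = 2.34e-06) and by 0.60 after rescaling (adjusted p = 0.000246). At 8 weeks it lay above Con in every CAC library, at 63.4 to 132.1 TPM in CAC and 48.5 to 58.7 TPM in Con. Its log2 change was then 0.70 ± 0.15 as deposited (limma adjusted p = 8.50e-05) and 0.18 after rescaling (adjusted p = 0.187). Dnajb9 encodes ERdj4, a DNAJ partner of BiP in the disposal of misfolded ER proteins. It had 157.5, 92.1, 50.4, 94.4 and 71.2 TPM in CAC at 6 weeks and 54.5, 42.3, 41.4, 50.1 and 42.9 TPM in Con. Its log2 change was 0.90 ± 0.26 (limma adjusted p = 0.00287) and 0.47 after rescaling (adjusted p = 0.113). Replicate 3 of CAC lay within the Con range. At 8 weeks Dnajb9 rose by 0.74 ± 0.24 (limma adjusted p = 0.00587), but 2 CAC libraries stood at 147.4 and 125.1 TPM and the other 5 at 39.3 to 72.0 TPM, against 35.6 to 45.3 TPM in Con. Without the 3 outlying libraries the 8-week change was 0.35 (adjusted p = 0.133), and in the fit of week 8 alone the adjusted p was 0.0525.

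Dnajc3 encodes p58IPK, a DNAJ protein of the ER lumen that also restrains the stress kinase PERK. It had 30.7, 22.8, 18.7, 23.3 and 19.7 TPM in CAC at 6 weeks and 17.1, 11.6, 11.995, 13.9 and 11.4 TPM in Con. It rose by 0.75 ± 0.16 as deposited (limma adjusted p = 8.86e-05) and by 0.34 after rescaling (adjusted p = 0.0153). Hspa13, an HSP70-like protein of microsomes, averaged 7.29 TPM in CAC and 3.72 TPM in Con at 6 weeks, a log2 change of 0.78 ± 0.13 (limma adjusted p = 3.09e-06) and 0.41 after rescaling (adjusted p = 0.00263). Dnajb11, the BiP partner ERdj3, averaged 29.7 TPM in CAC and 19.0 TPM in Con (log2 change 0.61 ± 0.11, limma adjusted p = 1.72e-05, and 0.19 after rescaling with adjusted p = 0.0259). Both had no overlap between CAC and Con at 6 weeks. Dnajb12, an ER membrane protein that recruits cytosolic HSC70, and Dnajc1, an ER membrane partner of BiP, were the 2 ER members that rose under both scalings at 8 weeks. Their log2 changes at that week were 0.80 ± 0.18 for Dnajb12 (limma adjusted p = 8.69e-05, and 0.29 after rescaling with 0.0429) and 0.74 ± 0.14 for Dnajc1 (limma adjusted p = 6.64e-06, and 0.33 after rescaling with 0.00569). Dnajb14, also of the ER membrane, passed at neither week as deposited, with log2 changes of 0.16 and 0.07 at 6 and 8 weeks, and it fell at 8 weeks after rescaling (-0.31, adjusted p = 0.00707). Without the 3 outlying libraries 9 ER members rose at 6 weeks and 7 at 8 weeks. The fibroblast sum, of cells rich in ER, was 302.5 to 421.7 TPM in CAC and 162.9 to 203.9 TPM in Con at 6 weeks, and its part in the ER result was not tested.

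**Figure D2:**
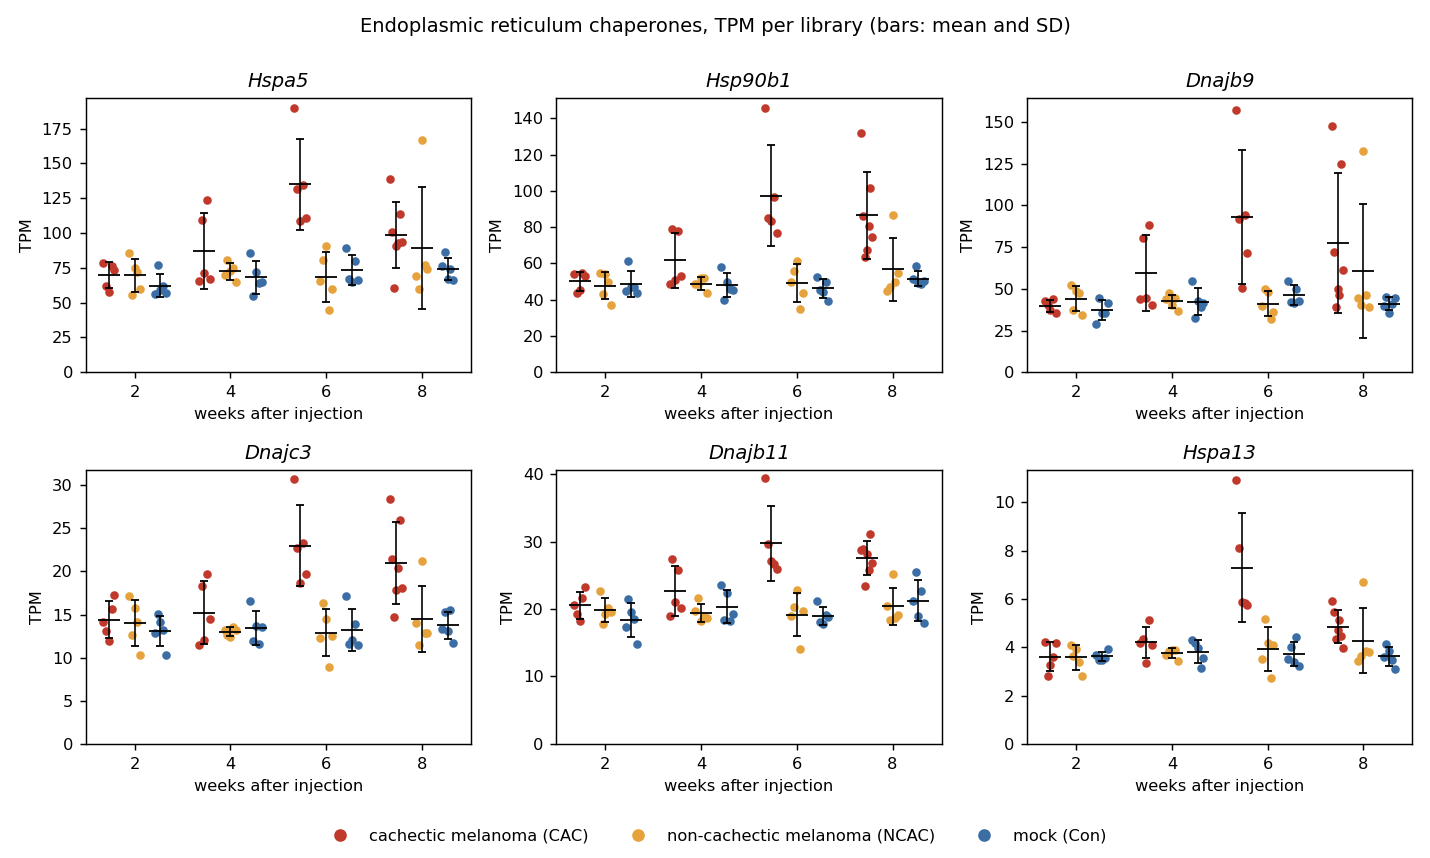
Each point is the TPM of 1 library for 6 ER members, by week, with CAC in red, NCAC in orange and Con in blue, and bars give the mean and SD. At 6 weeks Hspa5 lies at 108.3 to 189.5 TPM in CAC and 64.7 to 89.0 TPM in Con, while at 4 weeks 2 of 5 CAC libraries and at 8 weeks 1 NCAC library stand high.

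The promoters of 3 of these genes are shown because they share the ER stress element (CCAAT and CCACG with 9 bases between them), through which the unfolded protein response acts. Promoter windows of 59 of the 73 members were found in RefSeq sequence (GRCm38.p6), and the 250 bases before each annotated start were searched on both strands for the element and for a heat shock element (GAA, TTC and GAA with 2 bases between each and the next). The ER stress element was found in Hspa5, Hsp90b1 and Dnajc3 among the 59 members, and in 0.113% of 32851 windows of that length over all genes. A match of letters is not evidence of binding. The windows are chr2:34771840-34772089 on the plus strand for Hspa5, chr10:86705445-86705694 on the minus strand for Hsp90b1 and chr14:118937682-118937931 on the plus strand for Dnajc3, written 5′ to 3′ with the element in capitals. Hsp90b1 holds it once in each orientation, and the match nearest the start lies 65 to 47 bases before it in Hspa5, 107 to 89 in Hsp90b1 and 105 to 87 in Dnajc3.
Hspa5: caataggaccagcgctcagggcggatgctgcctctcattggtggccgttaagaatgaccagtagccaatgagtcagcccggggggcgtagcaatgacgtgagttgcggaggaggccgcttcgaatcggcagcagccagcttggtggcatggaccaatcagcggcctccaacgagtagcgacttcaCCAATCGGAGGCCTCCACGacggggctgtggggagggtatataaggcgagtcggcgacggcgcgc
Hsp90b1: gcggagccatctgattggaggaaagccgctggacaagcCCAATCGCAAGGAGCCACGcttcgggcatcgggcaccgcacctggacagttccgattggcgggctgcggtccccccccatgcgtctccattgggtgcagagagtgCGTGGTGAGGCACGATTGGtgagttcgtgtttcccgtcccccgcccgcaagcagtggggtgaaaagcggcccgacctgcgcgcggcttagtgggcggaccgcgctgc
Dnajc3: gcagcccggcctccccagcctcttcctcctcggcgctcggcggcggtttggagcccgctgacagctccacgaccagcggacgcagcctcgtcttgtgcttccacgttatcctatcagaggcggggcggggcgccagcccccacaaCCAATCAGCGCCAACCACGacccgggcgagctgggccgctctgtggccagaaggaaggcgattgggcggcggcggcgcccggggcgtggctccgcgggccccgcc

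Other genes of ER folding and the unfolded protein response, 17 in all, were examined beside the members. Of these, 14 (82.4%) rose and 1 fell in CAC over Con at 6 weeks as deposited, where 60.7% of all genes rose, and 10 (58.8%) rose and 1 fell after rescaling, where 16.9% of all genes rose. At 8 weeks 16 (94.1%) rose and 1 fell as deposited, where 69.4% of all genes rose, and 5 (29.4%) rose and 1 fell after rescaling, where 24.9% of all genes rose. As for the ER members, the difference from all genes was not tested, and the median log2 changes as deposited were 0.70 and 0.51. P4hb, a protein disulfide isomerase, averaged 215.9 ± 78.6 TPM in CAC and 95.8 ± 14.4 TPM in Con at 6 weeks (SD, n = 5 each), a log2 change of 1.11 (limma adjusted p = 9.63e-06) and 0.68 after rescaling (adjusted p = 0.000263). Sec63, which links the protein-conducting channel to BiP, rose by 0.78 at 6 weeks (limma adjusted p = 1.93e-05) and 0.81 at 8 weeks (adjusted p = 1.02e-06), and by 0.38 and 0.32 after rescaling. The gene that fell at both weeks under both scalings was Ddit3, which encodes the stress factor CHOP and is named here after its values were seen. Ddit3 averaged 11.01 ± 4.15 TPM in CAC and 16.5 ± 7.46 TPM in Con at 6 weeks (n = 5 each), and 12.1 ± 5.88 TPM in CAC (n = 7) and 17.0 ± 2.38 TPM in Con (n = 5) at 8 weeks, with log2 changes of -0.52 and -0.57 (limma adjusted p = 0.0371 and 0.0115).

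All 3 HSP90 genes rose in CAC over Con at 6 and at 8 weeks as deposited. Hsp90ab1, the constitutive cytosolic HSP90 and by mean TPM the highest member outside the small heat shock proteins, had 1628, 1034, 778.4, 881.9 and 719.0 TPM in CAC at 6 weeks and 568.4, 656.4, 515.6, 577.8 and 554.8 TPM in Con. Every CAC library lay above every Con library. The log2 change was 0.75 ± 0.18 (limma adjusted p = 0.000462), and after rescaling it was 0.31 (adjusted p = 0.0657). At 8 weeks Hsp90ab1 ranged over 520.8, 803.4 and 1395 TPM in CAC (lowest, median and highest of 7) and had 468.6, 586.5, 547.0, 570.2 and 403.2 TPM in Con. The log2 change was 0.77 ± 0.17 (limma adjusted p = 6.46e-05). The 3 highest values among the 12 CAC libraries of these weeks were those of the 3 outlying libraries. The inducible form Hsp90aa1 was far lower, with 27.7, 20.9, 36.3, 19.2 and 19.95 TPM in CAC and 14.9, 15.8, 18.7, 18.02 and 13.9 TPM in Con at 6 weeks. It averaged 29.6 ± 5.53 TPM in CAC (n = 7) and 18.3 ± 2.78 TPM in Con (n = 5) at 8 weeks. Its log2 changes at 6 and 8 weeks were 0.55 and 0.66 (limma adjusted p = 0.00207 and 6.58e-05). After rescaling, Hsp90b1 at 6 weeks was the single HSP90 call.

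Of the 11 cytosolic HSP70 and HSP110 genes, 6 rose at 6 weeks and 8 at 8 weeks as deposited, with medians of 0.35 and 0.46 that lie beside the all-gene medians of 0.38 and 0.46. Hspa8 encodes HSC70, the constitutive cytosolic HSP70. It had 633.0, 588.0, 498.8, 387.0 and 414.6 TPM in CAC and 327.4, 345.1, 382.3, 417.0 and 355.5 TPM in Con at 6 weeks. Its log2 change was 0.44 ± 0.16 (limma adjusted p = 0.0135). The groups overlapped, the change after rescaling was 0.01, and without replicate 1 of CAC it was 0.35 (adjusted p = 0.0652, or 0.0606 without all 3 outlying libraries). At 8 weeks the change of Hspa8 was 0.46 ± 0.15 as deposited (limma adjusted p = 0.00479) and -0.06 after rescaling. Hspa2, an HSP70 best known from the testis, was scarce but shifted in all 7 CAC libraries of week 8, with 3.60, 6.21 and 8.18 TPM (lowest, median and highest) in CAC and 1.91, 2.76, 2.77, 3.07 and 2.73 TPM in Con. It rose by 0.88 ± 0.13 (limma adjusted p = 1.73e-07), by 0.46 after rescaling (adjusted p = 0.00440), and was the HSP70 gene that passed under both scalings at that week. Hsph1, the HSP110 that exchanges nucleotide on HSP70, averaged 12.6 ± 4.48 TPM in CAC and 8.52 ± 0.827 TPM in Con at 6 weeks (n = 5 each) and 15.5 ± 5.11 TPM in CAC (n = 7) and 9.66 ± 1.71 TPM in Con (n = 5) at 8 weeks. Its log2 changes were 0.46 ± 0.17 and 0.60 ± 0.16 (limma adjusted p = 0.0178 and 0.000855), and 0.06 and 0.12 after rescaling. The 6-week call of Hsph1 was lost without replicate 1 of CAC (log2 change 0.29, adjusted p = 0.140, or 0.0960 without all 3 outlying libraries), and in the fit of week 6 alone the adjusted p was 0.0504.

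Of the members, 13 are textbook HSF1 targets. At 6 weeks 7 of them (53.8%) rose as deposited (median log2 change 0.37), where 60.7% of all genes did, and at 8 weeks 11 (84.6%) rose (median 0.60), where 69.4% did. After rescaling 0 rose and 1 (7.69%) fell at 6 weeks, against 16.9% and 18.1% of all genes, and 1 (7.69%) rose and 2 (15.4%) fell at 8 weeks, against 24.9% and 24.2%. Without the 3 outlying libraries 4 rose at 6 weeks and 11 at 8 weeks. The classic inducible HSP70 pair Hspa1a and Hspa1b are near-identical copies, so the split of reads between them is uncertain, and both were scarce. Hspa1a had 1.19, 4.63 and 12.7 TPM (lowest, median and highest of 7) in CAC at 8 weeks and 1.46, 3.49, 1.95, 2.01 and 1.35 TPM in Con. This was a log2 change of 0.87 ± 0.31 (limma adjusted p = 0.0111) and 0.50 after rescaling (adjusted p = 0.178). Hspa1b had 2.29, 3.70 and 13.4 TPM in CAC and 0.929, 3.80, 2.56, 2.18 and 2.17 TPM in Con at 8 weeks. Its change of 0.69 ± 0.28 (limma adjusted p = 0.0232) was lost without replicate 7 of CAC (0.45, adjusted p = 0.114) or replicate 1 of Con (0.51, adjusted p = 0.112) and in the fit of week 8 alone (adjusted p = 0.0646). Both genes are highest in replicate 7 of CAC and overlap between the groups. Dnajb1, the HSP40 that partners them, did not overlap at 8 weeks: it had 5.79, 8.48 and 10.8 TPM (lowest, median and highest of 7) in CAC and 4.85, 4.00, 4.30, 4.45 and 4.89 TPM in Con. It rose by 0.76 ± 0.15 (limma adjusted p = 1.16e-05), and after rescaling the change was 0.31 (adjusted p = 0.0577). At 6 weeks its change was 0.26 ± 0.16 (adjusted p = 0.140), and its difference between the weeks was not called. Dnaja1, another cytosolic partner of HSP70, rose by 0.44 at 8 weeks as deposited (limma adjusted p = 0.00303) and had a change of -0.02 after rescaling.

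Of 16 co-chaperones of HSP90 and HSP70 and heat shock factors, 11 (68.8%) rose at 6 weeks and 13 (81.2%) at 8 weeks as deposited, where 60.7% and 69.4% of all genes did. After rescaling 4 rose and 4 fell at 6 weeks (25% each, against 16.9% and 18.1% of all genes), and 4 rose and 6 (37.5%) fell at 8 weeks, against 24.9% and 24.2%. Hsf1 itself averaged 39.1 ± 10.5 TPM in CAC (n = 7) and 18.6 ± 4.18 TPM in Con (n = 5) at 8 weeks, a log2 change of 1.03 (limma adjusted p = 1.33e-07) and 0.52 after rescaling (adjusted p = 3.10e-05). Ptges3, the HSP90 partner p23, averaged 67.8 ± 21.1 TPM in CAC and 36.7 ± 1.56 TPM in Con at 6 weeks (n = 5 each). It rose by 0.82 at 6 weeks and 1.07 at 8 weeks (limma adjusted p = 2.17e-05 and 1.23e-08), and by 0.39 and 0.56 after rescaling. Fkbp5, an HSP90 partner on the glucocorticoid receptor and itself a glucocorticoid-induced gene, changed most: it averaged 94.5 ± 50.9 TPM in CAC and 10.5 ± 4.10 TPM in Con at 6 weeks, a log2 change of 3.01 (limma adjusted p = 6.32e-05) and 2.58 after rescaling (adjusted p = 0.000920).

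**Figure D3:**
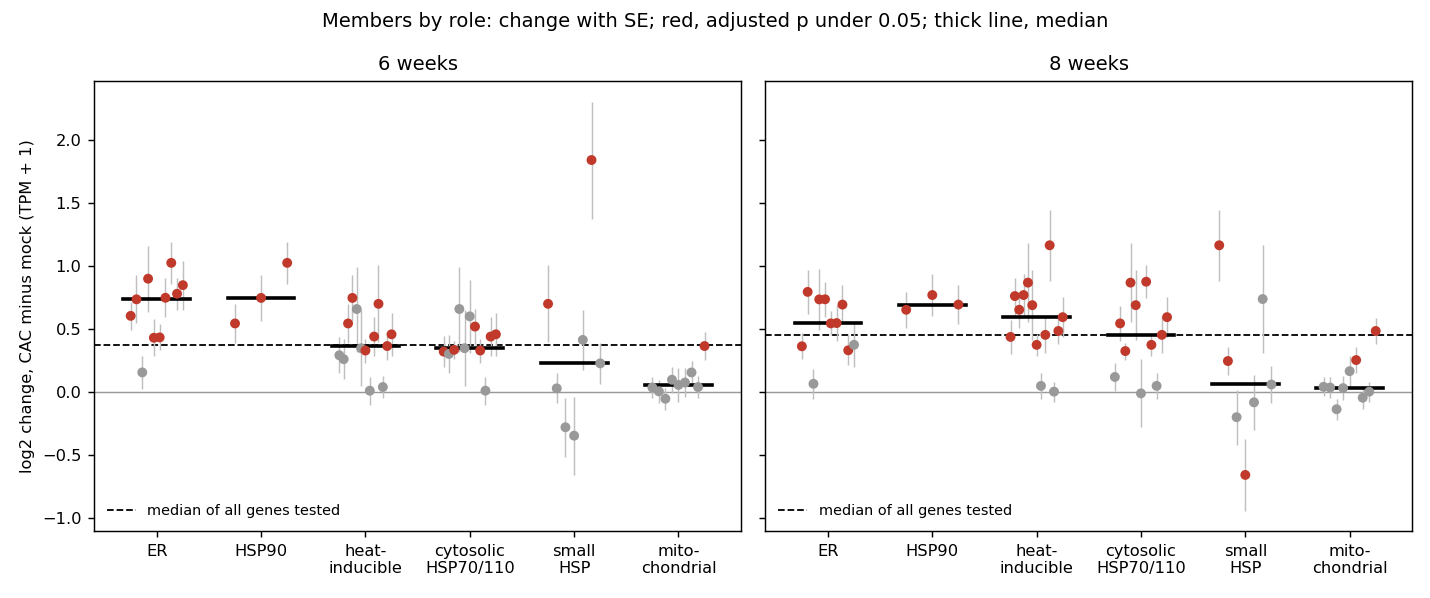
Each point is the log2 change of CAC minus Con in TPM + 1 of 1 member with its SE, grouped by role, at 6 weeks on the left and 8 weeks on the right, in red at a limma adjusted p under 0.05. Thick lines give the median of each group, 0.74 for the ER set and 0.06 for the mitochondrial set at 6 weeks, and the dashed line the median of all genes, 0.38 at 6 weeks and 0.46 at 8 weeks.

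The small heat shock proteins did not move as one. Of 7 tested genes that encode such proteins or carry their symbol (Hspb1, Hspb2, Hspb3, Hspb6, Hspb7, Hspb8 and Hspb11), 2 rose at 6 weeks and 2 rose and 1 fell at 8 weeks as deposited. Without the 3 outlying libraries 2 rose at 6 weeks, and 1 rose and 0 fell at 8 weeks. The 8-week increase lost was that of Hspb11, with a log2 change of 0.25 (limma adjusted p = 0.0373) and 0.22 without them (adjusted p = 0.0964). After rescaling, 1 rose and 1 fell at 6 weeks, and 1 rose and 4 fell at 8 weeks. Hspb7 (chr4:141420779-141425311, plus strand, GRCm38) encodes a heart and muscle protein that binds the actin crosslinker filamin C. It had 1344, 1226, 1156, 945.6 and 1018 TPM in CAC at 6 weeks, 345.5, 308.4, 274.2, 100.02 and 609.0 TPM in NCAC and 236.8, 271.2, 278.9, 551.0 and 308.1 TPM in Con. All 5 CAC libraries lay above every NCAC and Con library, and the mean was 3.46-fold that of Con. The log2 change over Con was 1.84 ± 0.46 (limma adjusted p = 0.000754) and 1.41 after rescaling (adjusted p = 0.0133). This was the largest increase of any tested member at 6 weeks under both scalings. At the other weeks the level was uneven: at 4 weeks Hspb7 had 424.0, 2701, 1168, 1436 and 398.8 TPM in CAC and 557.5, 616.7, 359.2, 1307 and 436.7 TPM in Con. At 8 weeks it ranged over 369.0, 1119 and 2570 TPM in CAC (lowest, median and highest of 7) and had 609.2, 1123, 493.0, 388.9 and 506.8 TPM in Con. The 8-week change was 0.74 ± 0.43 (limma adjusted p = 0.114), and it passed without replicate 5 of CAC (0.97, adjusted p = 0.0392) or replicate 2 of Con (0.98, adjusted p = 0.0484). In the fit of all groups the difference between the 8- and 6-week changes, -1.10 ± 0.63, was not called (adjusted p = 0.998).

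Hspb1 (chr5:135887919-135889563, plus strand, GRCm38) encodes HSP27, which protects actin and the sarcomere. At 8 weeks it ranged over 159.1, 265.5 and 856.5 TPM in CAC (lowest, median and highest of 7) and had 111.9, 216.3, 136.4, 110.8 and 82.9 TPM in Con. All 7 CAC libraries lay above the Con mean, the highest being replicate 7, and 2 of them overlap the highest Con library. Hspb1 rose by 1.17 ± 0.28 (limma adjusted p = 0.000277) and by 0.65 after rescaling (adjusted p = 0.0418), the largest increase of any tested member at 8 weeks under both scalings. At 6 weeks it had 209.7, 213.3, 365.3, 158.4 and 192.8 TPM in CAC and 102.9, 129.5, 132.0, 216.7 and 113.1 TPM in Con. The change was 0.70 ± 0.30 (limma adjusted p = 0.0402). That call was lost after rescaling (0.27, adjusted p = 0.487) and without any 1 of replicates 1, 2 and 3 of CAC or 1, 2, 3 and 5 of Con (adjusted p = 0.0531 to 0.151), the smallest change being 0.52 without replicate 3 of CAC. It was also lost without the 3 outlying libraries (0.72, adjusted p = 0.0597).

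Hspb2 and Hspb3 form a complex with each other in muscle cells and were low in part of the CAC libraries. Hspb3 had 7.64, 28.1, 54.6, 42.6, 30.8, 5.26 and 40.3 TPM in the 7 CAC libraries at 8 weeks and 39.6, 47.7, 34.8, 38.5 and 28.4 TPM in Con. Its log2 change of -0.66 ± 0.29 passed (limma adjusted p = 0.0354) and was -1.14 after rescaling (adjusted p = 0.00136), but rested on replicates 1 and 6, since without the 3 outlying libraries it was 0.03 (adjusted p = 0.848). The call was also lost without replicate 1 (-0.41, adjusted p = 0.164) or 6 (-0.33, adjusted p = 0.214) of CAC alone, without replicate 1, 2 or 4 of Con (adjusted p = 0.0570 to 0.0873), in the fit of week 8 alone (adjusted p = 0.181) and without a filter on low genes (adjusted p = 0.0616). Hspb2 had 28.8 and 33.8 TPM in those 2 libraries and 75.9 to 132.2 TPM in the other 5 CAC libraries at 8 weeks, against 52.8 to 124.9 TPM in Con. Its changes of -0.28 at 6 weeks and -0.20 at 8 weeks did not pass as deposited (limma adjusted p = 0.301 and 0.415), and were -0.71 at both weeks after rescaling (adjusted p = 0.0263 and 0.0111). Without the 3 outlying libraries the 8-week change of Hspb2 turned to 0.29 (adjusted p = 0.0785). Cryab, the crystallin gene that lies beside Hspb2 and is not a member, averaged 858.3 ± 800 TPM in CAC (n = 7) and 891.6 ± 418 TPM in Con (n = 5) at 8 weeks (log2 change -0.51, limma adjusted p = 0.285).

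Hspb6 (HSP20) and Hspb8 (HSP22, which works with BAG3 in chaperone-assisted autophagy) were abundant and did not pass in CAC over Con as deposited with all libraries in the fit. Hspb6 averaged 837.9 ± 193 TPM in CAC and 621.7 ± 116 TPM in Con at 6 weeks (n = 5 each), with a log2 change of 0.42 ± 0.24 (limma adjusted p = 0.121). This change was 0.54 and passed once the 3 outlying libraries were left out (adjusted p = 0.0426). It averaged 788.3 ± 366 TPM in CAC (n = 7) and 777.9 ± 130 TPM in Con (n = 5) at 8 weeks, with -0.08 ± 0.22 (adjusted p = 0.752), which turned to 0.18 without those 3 libraries (adjusted p = 0.463). Hspb8 averaged 250.6 ± 50.5 TPM in CAC (n = 7) and 239.6 ± 47.4 TPM in Con (n = 5) at 8 weeks, with 0.06 ± 0.15 (limma adjusted p = 0.713). After rescaling both fell at 8 weeks, by 0.60 for Hspb6 (adjusted p = 0.0335) and by 0.46 for Hspb8 (adjusted p = 0.00316) on the log2 scale.

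**Figure D4:**
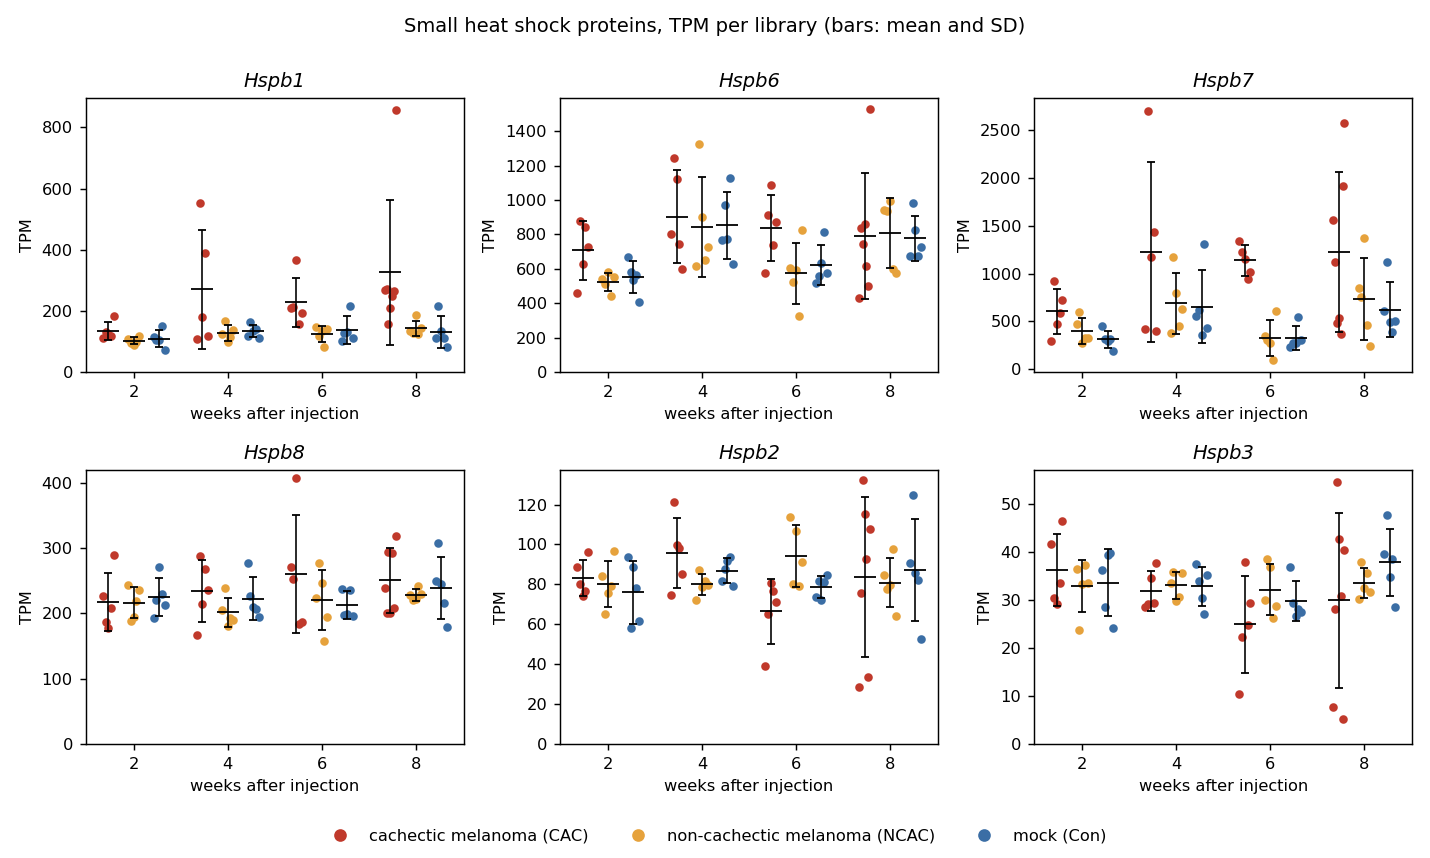
Each point is the TPM of 1 library for 6 small heat shock protein genes, by week, with CAC in red, NCAC in orange and Con in blue, and bars give the mean and SD. Hspb7 at 6 weeks separates CAC, at 945.6 to 1344 TPM, from Con, at 236.8 to 551.0 TPM, and Hspb3 at 8 weeks is below 8 TPM in 2 CAC libraries.

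Partners of these proteins on the sarcomere and in autophagy were mixed. Of 10 genes of the BAG family and chaperone-assisted autophagy, 6 (60%) rose at 6 and at 8 weeks as deposited, where 60.7% and 69.4% of all genes did. After rescaling 3 rose and 2 fell at 6 weeks, against 16.9% and 18.1% of all genes, and 2 rose and 4 fell at 8 weeks, against 24.9% and 24.2%. Flnc, which encodes filamin C, averaged 408.8 ± 168 TPM in CAC and 148.4 ± 61.0 TPM in Con at 6 weeks (n = 5 each), a log2 change of 1.45 (limma adjusted p = 0.000643) and 1.01 after rescaling (adjusted p = 0.0187). Sqstm1, the autophagy receptor p62, averaged 526.4 ± 297 TPM in CAC and 210.4 ± 21.8 TPM in Con at 6 weeks (n = 5 each), with 1.18 (limma adjusted p = 0.000699) and 0.74 after rescaling (adjusted p = 0.0212). Of 6 myosin and sarcomere chaperones 1 rose at 6 weeks as deposited, Unc45a, and 2 at 8 weeks, where 60.7% and 69.4% of all genes rose. At 8 weeks Unc45a rose by 0.72 (limma adjusted p = 1.80e-06) and the muscle myosin chaperone Unc45b by 0.59 (adjusted p = 0.000114). The median change of all genes at that week was 0.46, and rescaled values are not given for this list.

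The mitochondrial members kept close to their Con values in TPM as deposited while most other genes rose. Of these 9 members 1 rose at 6 weeks and 2 at 8 weeks as deposited, with median log2 changes of 0.06 and 0.04, and after rescaling 8 fell at each week, with medians of -0.36 and -0.46 against 18.1% and 24.2% of all genes called lower. As deposited, 1 rose at each week without the 3 outlying libraries. Dnajc30 was 1 of the 2 that rose at 8 weeks as deposited, and it was called lower after rescaling. Its log2 change as deposited was 0.26 (limma adjusted p = 0.0255), and 0.16 without those 3 libraries (adjusted p = 0.146). That call was also lost without replicate 6 of CAC or replicate 1, 4 or 5 of Con (adjusted p = 0.056 to 0.125). Hspd1 encodes HSP60, the chaperonin ring of the mitochondrial matrix. It had 133.4, 131.6, 145.7, 140.9 and 126.6 TPM in CAC at 6 weeks and 121.8, 147.4, 135.1, 142.3 and 114.2 TPM in Con. Its changes of 0.04 ± 0.09 at 6 weeks and 0.01 ± 0.08 at 8 weeks did not pass (limma adjusted p = 0.679 and 0.955). After rescaling they were -0.39 (adjusted p = 0.00390) and -0.51 (adjusted p = 3.34e-05). Hspa9, the matrix HSP70 mortalin, averaged 281.8 ± 25.8 TPM in CAC (n = 7) and 289.9 ± 19.2 TPM in Con (n = 5) at 8 weeks, with -0.04 ± 0.09 as deposited (limma adjusted p = 0.663) and -0.56 after rescaling (adjusted p = 1.83e-06). Dnajc15, of the mitochondrial import motor, averaged 97.1 ± 10.5 TPM in CAC (n = 7) and 106.7 ± 12.6 TPM in Con (n = 5) at 8 weeks, with -0.13 ± 0.08 as deposited (limma adjusted p = 0.132, and -0.20 with 0.0272 without replicate 5 of Con) and -0.65 after rescaling (adjusted p = 7.79e-08). Among 12 folding partners and proteases of the mitochondrion that are not members, 6 rose at 6 weeks and 4 rose and 1 fell at 8 weeks as deposited, where 60.7% and 69.4% of all genes rose. After rescaling 0 rose at either week, 4 fell at 6 weeks and 8 at 8 weeks. Of all genes 16.9% and 24.9% then rose and 18.1% and 24.2% fell.

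Hspe1, the lid of the HSP60 chaperonin, was the mitochondrial member that rose at 6 weeks. It had 93.2, 53.0, 65.1, 65.0 and 54.1 TPM in CAC and 49.6, 56.0, 48.9, 48.2 and 47.3 TPM in Con at 6 weeks. The log2 change was 0.37 ± 0.11 (limma adjusted p = 0.00461, and 0.0596 without replicate 1 of CAC), and 0.49 ± 0.10 at 8 weeks (adjusted p = 6.10e-05). After rescaling its changes were -0.06 and -0.03, and neither passed. Hspd1 and Hspe1 lie head to head on chromosome 1 and share a promoter, shown here because the 2 transcripts moved unequally as deposited. The window chr1:55087898-55088147, read on the plus strand from Hspe1 (RefSeq, GRCm38.p6), holds a match to the heat shock element on each strand, the 2 overlapping, 89 to 72 bases before the Hspe1 start, in capitals.
Hspe1: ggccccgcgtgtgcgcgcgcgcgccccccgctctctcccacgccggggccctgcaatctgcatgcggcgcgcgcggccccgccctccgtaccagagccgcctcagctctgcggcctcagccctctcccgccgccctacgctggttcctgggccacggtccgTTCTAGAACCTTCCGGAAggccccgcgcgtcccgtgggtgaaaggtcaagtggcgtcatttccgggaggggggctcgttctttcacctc
The heat shock element was also found in Dnajb6, and in 0.466% of the windows of all genes. Of 13 genes of the constitutive TRiC chaperonin and prefoldin of the cytosol, 11 (84.6%) rose at 6 and at 8 weeks as deposited, where 60.7% and 69.4% of all genes did. After rescaling 1 (7.69%) rose and 1 fell at 6 weeks, against 16.9% and 18.1% of all genes, and 2 (15.4%) rose and 2 fell at 8 weeks, against 24.9% and 24.2%. Cct4 of that ring rose by 0.69 at 6 weeks and 0.80 at 8 weeks (limma adjusted p = 8.17e-05 and 9.15e-07), and by 0.26 and 0.29 after rescaling.

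Over the DNAJB and DNAJC families, 6 of 9 tested DNAJB genes and 16 of 24 DNAJC genes (66.7% of each) rose in CAC over Con at 6 weeks as deposited, and 7 (77.8%) and 16 at 8 weeks, where 60.7% and 69.4% of all genes rose. These counts include the ER and mitochondrial members treated above. After rescaling 1 DNAJB gene rose and 1 fell at 6 weeks, and 2 rose and 2 fell at 8 weeks. Of the DNAJC genes 6 (25%) rose and 7 (29.2%) fell at 6 weeks after rescaling, against 16.9% and 18.1% of all genes, and 4 (16.7%) rose and 10 (41.7%) fell at 8 weeks, against 24.9% and 24.2%. The falls at both weeks include the mitochondrial members Dnajc11, Dnajc15, Dnajc19, Dnajc28 and Dnajc30, already counted above. Dnajb2, a neuron- and muscle-rich DNAJ protein that passes clients to the proteasome, had 60.8, 41.5, 34.3, 28.9 and 27.5 TPM in CAC at 6 weeks and 21.1, 22.8, 21.95, 22.8 and 20.4 TPM in Con. It rose by 0.74 ± 0.18 at 6 weeks (limma adjusted p = 0.000603) and 0.92 ± 0.17 at 8 weeks (adjusted p = 5.29e-06), and by 0.42 at 8 weeks after rescaling (adjusted p = 0.00641). Dnajc2, the ribosome-bound partner of HSP70 known as MPP11, and Dnajc5, the cysteine string protein of secretory vesicles, rose at both weeks under both scalings. Dnajc2 had 23.9, 14.8, 13.4, 15.6 and 13.4 TPM in CAC at 6 weeks and 9.88, 8.95, 7.58, 9.11 and 6.13 TPM in Con. The log2 change was 0.87 ± 0.13 (limma adjusted p = 7.28e-07) and 0.46 after rescaling (adjusted p = 0.000205). Dnajc5 averaged 28.4 TPM in CAC and 17.2 TPM in Con at 6 weeks, with 0.68 ± 0.12 (limma adjusted p = 1.40e-05) and 0.27 after rescaling (adjusted p = 0.00316). Neither gene overlapped between CAC and Con at 6 or 8 weeks. Dnajc8, Dnajc21 and Dnajc25 also rose under both scalings at 6 weeks, with changes of 0.60, 0.72 and 0.60 as deposited (limma adjusted p = 8.36e-06, 2.27e-05 and 7.24e-05), as did Dnajc13, of endosome traffic, at 8 weeks (0.73, adjusted p = 2.99e-05). Dnajb6, a suppressor of protein aggregation mutated in a limb-girdle muscular dystrophy, averaged 51.5 ± 16.9 TPM in CAC (n = 7) and 30.7 ± 3.71 TPM in Con (n = 5) at 8 weeks, with 0.68 ± 0.12 (limma adjusted p = 2.11e-06) and 0.17 after rescaling (adjusted p = 0.121). Dnajb4, a further cytosolic HSP40, rose by 0.69 at 6 weeks (limma adjusted p = 0.00172) and 0.77 at 8 weeks (adjusted p = 0.000125), and did not pass after rescaling. Dnajb5, a cytosolic partner of HSP70, had changes of 0.07 at 6 weeks and 0.14 at 8 weeks that did not pass (limma adjusted p = 0.675 and 0.343) and that were -0.35 and -0.37 after rescaling (adjusted p = 0.0482 and 0.0193). Dnaja4, a cytosolic HSP40 of heart and muscle, averaged 58.8 TPM in CAC and 76.2 TPM in Con at 8 weeks, with -0.47 ± 0.24 as deposited (limma adjusted p = 0.0746) and -0.98 after rescaling (adjusted p = 0.00144). As deposited it passed without replicate 7 of CAC (-0.69, adjusted p = 0.00479) or replicate 4 of Con (-0.57, adjusted p = 0.0451).

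Set against NCAC in place of Con, 40 members rose and 1 fell in CAC at 6 weeks and 36 rose and 0 fell at 8 weeks as deposited, where 64.2% of all genes rose and 3.52% fell at 6 weeks, and 67.0% rose and 5.04% fell at 8 weeks. After rescaling, 12 members rose and 15 fell at 6 weeks, beside 20.8% and 21.7% of all genes. At 8 weeks 8 rose and 25 fell after rescaling, beside 25.3% and 24.3% of all genes. Among these falls, Hspa9 at 6 weeks and Dnajc7, Dnajc16, Dnajc30 and Hspa4 at 8 weeks had been called higher as deposited. At 2 and 4 weeks 0 members were called over NCAC as deposited, where 0.0630% of all genes were higher at 2 weeks, and 4.68% were higher and 0.585% lower at 4 weeks. At an unadjusted limma p under 0.05 there were 0 of 64 members at 2 weeks and 11 at 4 weeks, and 778 and 2900 of all 11107 genes. After rescaling 5 members were lower at 4 weeks, where 2.80% of all genes were higher and 3.66% lower. These comparisons share the CAC libraries with those above. Replicate 4 of NCAC at 6 weeks stood apart: 10 of 10 ER members, 9 of 11 cytosolic HSP70 and HSP110 genes and 6 of 7 small heat shock protein genes lay below every Con library of that week in it. Mitochondrially encoded transcripts took 61.1% of its TPM, against 42.3% to 49.1% in the other 4 NCAC libraries. Its size factor was 0.614, against 0.900 to 1.02 in those 4, so genes at large lay low in it too. The share of all genes below every Con library was not counted, so these counts are not read as a trait of members. Without it 31 members rose and 1 fell at 6 weeks as deposited. The calls lost were those of Hspb1, Hspa1a, Hspb6, Hspe1, Dnajc1, Dnajc12, Dnajc16, Hspa12b and Hspa9 (adjusted p = 0.0531 to 0.187). At 6 weeks Hspb7 rose by 2.00 ± 0.46 over NCAC (limma adjusted p = 0.000249), Hspa5 by 0.98 ± 0.19 (adjusted p = 3.20e-05), Hsp90b1 by 0.96 ± 0.17 (adjusted p = 4.45e-06) and Hsp90ab1 by 0.90 ± 0.18 (adjusted p = 3.71e-05), each under both scalings. The member that fell was Hspb2, with 39.2, 65.2, 80.8, 76.5 and 70.9 TPM in CAC and 113.9, 80.3, 106.7, 79.4 and 91.1 TPM in NCAC. The log2 change was -0.52 ± 0.24 (limma adjusted p = 0.0458) and -1.01 after rescaling (adjusted p = 0.00141). The call as deposited was lost without replicate 1 of CAC (-0.35, adjusted p = 0.210), replicate 2 of CAC or replicate 1, 3 or 5 of NCAC (adjusted p = 0.0597 to 0.104). At 8 weeks 6 of 10 ER members rose over NCAC as deposited. After rescaling Dnajc1 was the ER member that rose, and Dnajb14 fell. Replicate 3 of NCAC at 8 weeks carried 167.1 TPM of Hspa5, 86.8 TPM of Hsp90b1 and 132.4 TPM of Dnajb9, where the other 4 NCAC libraries had at most 77.3, 55.0 and 46.5 TPM. Without that library 9 ER members rose as deposited, and the change of Hspa5 over NCAC was 0.46 (adjusted p = 0.0147), against 0.21 with it (adjusted p = 0.298). Leaving it out was not combined with the rescaling. No member's CAC effect was called different between 6 and 4 weeks or between 8 and 6 weeks, where 0.882% and 0% of all genes were. At an unadjusted limma p under 0.05 there were 21 and 5 of 64 members, and 3004 and 375 of all 11107 genes. The member nearest to a call was Hspa13 between 6 and 4 weeks (difference 0.67 ± 0.18, limma adjusted p = 0.0503).

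**Figure D5:**
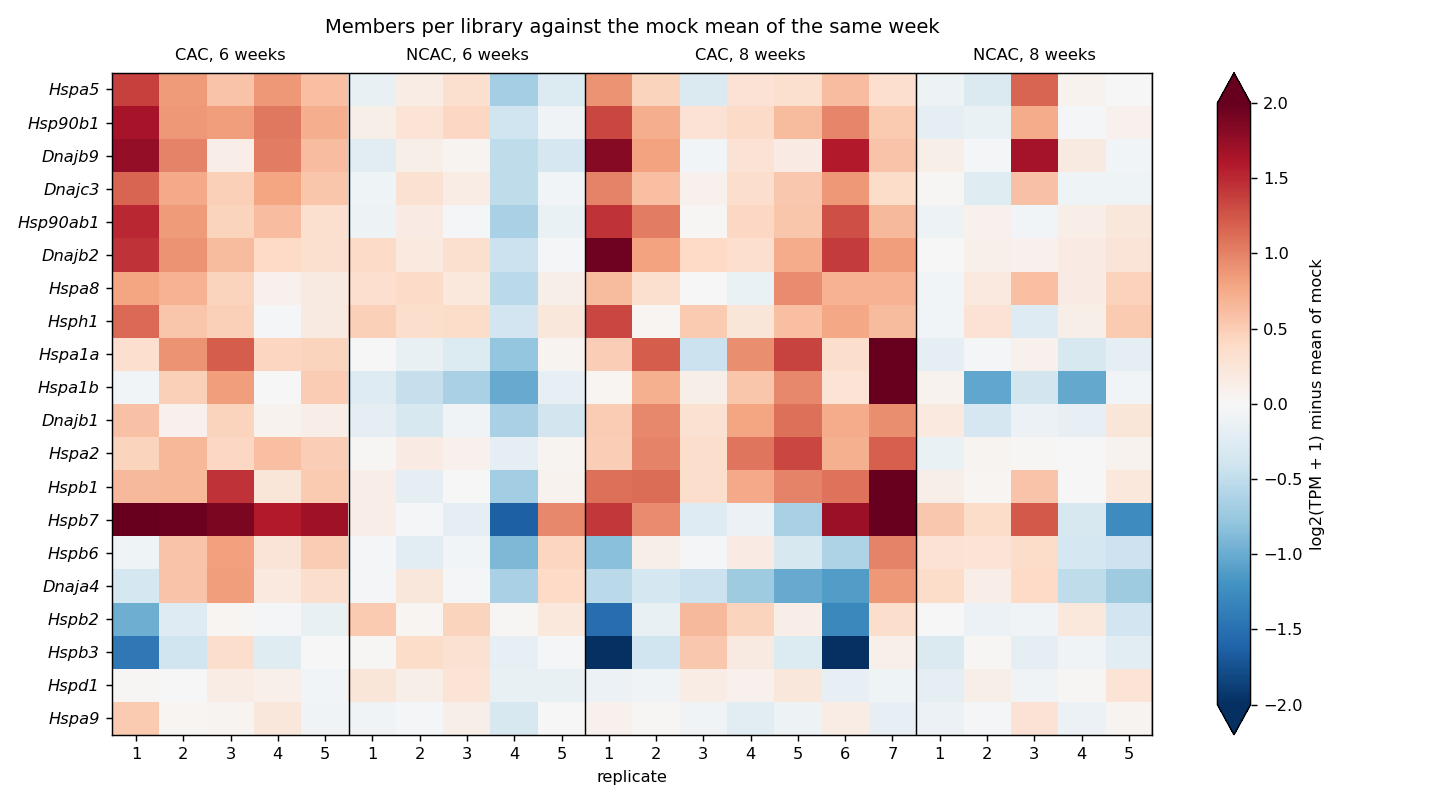
Each column is a library and each row a member, and the colour gives log2(TPM + 1) minus the Con mean of the same week, for CAC and NCAC at 6 and 8 weeks. Hspb7 is high in all 5 CAC libraries at 6 weeks and in 4 of 7 at 8 weeks, Hspb2 and Hspb3 are low in replicate 1 of CAC at 6 weeks and replicates 1 and 6 at 8 weeks, and replicate 3 of NCAC at 8 weeks stands high for the ER members.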

How the data were processed

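Tibialis anterior RNA from 62 mouse libraries was prepared with a stranded mRNA kit and sequenced by the submitters, per the labels' protocols. TPM by gene symbol, adding up to 1000000 per library, were computed and deposited by the authors. Per the submitters' processing notes the reads were placed on mm10. How they were aligned and quantified is not given in the sources used here. TPM keep no record of depth, so the precision of low values is unknown. Groups came from the labels.

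Values were analysed as log2(TPM + 1). Of 47643 symbols, 23019 were above 0 in some library and 11107 averaged 1 TPM or more. These were fitted with limma 3.58.1 (R 4.3.3), with the 12 groups in 1 model and a mean-variance trend, and p-values were adjusted by Benjamini-Hochberg over the 11107 genes at 0.05. Fold changes on this scale understate changes of low genes. The rescaled values divide each library by its median-of-ratios size factor before the same fit. Two-sided exact permutation tests of single genes between 2 groups were run beside it. The fitting procedure was first tested on simulated data.

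The members and gene lists were chosen with earlier results of these data known. The text names a fixed panel of 25 members, up to 8 largest increases and decreases per comparison of CAC among called members with a mean of at least 5 TPM, and up to 4 genes per list of partners. Other genes were named after their values were seen. Alternatives were a pseudocount of 0.1, no filter, the rescaling, removal of mitochondrially encoded genes, a fit of the compared week alone, a replicate block and leaving out each library. Chosen after seeing the data were the fits without the 3 libraries farthest out and without those over 100 TPM of albumin, a sign of liver RNA. Promoters are RefSeq sequence on GRCm38.p6, and gene coordinates come from a GRCm38 annotation.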

Additional observations from a re-analysis of the deposited data

Results flagged for a closer look

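Each of 25 panel members was searched in each of the 12 groups, 300 sets in all, for a highest or lowest library that stood far from the rest of its group by Dixon's test. It gave 26 flags, each for 1 gene in 1 group, and chance gives about 1 in 20 sets. Some libraries were flagged for several genes, so the flags are not independent of each other. In replicate 7 of CAC at 8 weeks Hspa1b was 13.37 TPM, Hspb1 856.5 TPM and Hspb6 1531 TPM, each the highest of 7. In replicate 5 of CAC at the same week Dnaja1 was highest at 15.66 TPM. In CAC at 6 weeks, replicate 1 had the highest Hsp90b1, 145.6 TPM, and replicate 3 the highest Hspb1, 365.3 TPM, and Dnajb4, 66.38 TPM. In CAC at 2 weeks replicate 5 had the highest Hspb1, 184.4 TPM, and Dnajb1, 6.287 TPM.

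In replicate 3 of NCAC at 8 weeks 4 ER members stood high together, with Hspa5 at 167.1 TPM, Hsp90b1 at 86.82 TPM, Dnajb9 at 132.4 TPM and Dnajc3 at 21.17 TPM. Replicate 4 of NCAC at 6 weeks was lowest for Dnajb4, at 15.45 TPM. Replicate 2 of NCAC at 4 weeks was highest for Hspa1a, 5.45 TPM, and Hspa1b, 3.80 TPM, and replicate 1 of NCAC at 2 weeks for Hspa8, 442.2 TPM.

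Among Con libraries, replicate 2 at 2 weeks was highest for Hspa5, 77.02 TPM, and Hsp90b1, 61.26 TPM. At 4 weeks replicate 1 was highest for Dnajb2, 26.02 TPM, and replicate 4 for Hspb7, 1307 TPM. At 6 weeks replicate 4 was highest for Hspb1, 216.7 TPM, and Hspb7, 551.0 TPM, replicate 1 for Hspb3, 36.9 TPM, and replicate 2 for Hspe1, 55.96 TPM, while replicate 5 was lowest for Hspa9, 252.2 TPM.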

How the results depend on the processing

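TPM hold no depth, so counting error cannot be given, and members of a few TPM are the least certain. Of 62 log2 changes of named members in CAC over Con at 6 and 8 weeks, all 62 kept their direction and call with a pseudocount of 0.1 and without the libraries over 100 TPM of albumin, 59 without a filter, 57 in the compared week alone, 59 with the replicate block, 54 without the 3 libraries farthest out, 39 without mitochondrially encoded genes and 18 after rescaling. Scaling therefore decided most calls. For CAC over Con, rescaling gave 11 and 8 members higher at 6 and 8 weeks and 2, 12 and 21 lower at 4, 6 and 8 weeks. For CAC over NCAC it gave 12 and 8 higher at 6 and 8 weeks and 5, 15 and 25 lower at 4, 6 and 8 weeks. Without mitochondrially encoded genes, CAC over Con gave 21 and 24 higher at 6 and 8 weeks and 1, 3 and 9 lower at 4, 6 and 8 weeks, and CAC over NCAC gave 26 higher at 6 weeks and 3, 4 and 9 lower at 4, 6 and 8 weeks. Without a filter 0 members were lower in CAC over Con at 8 weeks and in CAC over NCAC at 6 weeks, with more genes adjusted over. In the compared week alone, with fewer libraries, 0 were lower in CAC over Con at 8 weeks and 2 higher in CAC over NCAC at 4 weeks. Without the 3 libraries farthest out, 0 were lower in CAC over Con at 8 weeks, and 4 were higher and 1 lower in CAC over NCAC at 4 weeks. With the replicate block, 40 members at 6 weeks and 38 at 8 weeks were higher in CAC over Con, 1 was lower in CAC over NCAC at 8 weeks, and 1 differed between the 6- and 4-week effects. The labels do not say that a replicate number marks anything shared, and over 60 pairs of same-numbered libraries of 2 treatments at 1 week the correlation of their deviations from the group means was -0.332 to 0.332, with 15 over 0.1 and 13 best matched to their own number, so the numbers were not taken to pair the libraries. Among named members in CAC over Con at 8 weeks the block made Dnaja4 a call (-0.61, adjusted p = 0.0100) and ended those of Hspb3 (-0.42, adjusted p = 0.131) and Hspa1b (0.48, adjusted p = 0.105).

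With each library left out in turn, CAC over Con gave 28 to 39 members higher at 6 weeks, 38 to 45 higher at 8 weeks and 0 to 2 lower at 8 weeks. CAC over NCAC gave 0 to 4 higher at 4 weeks, 31 to 43 at 6 weeks and 34 to 38 at 8 weeks, and 0 to 1 lower at 6 weeks and 0 to 2 at 8 weeks. Between the 6- and 4-week effects 0 to 6 members differed.

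Among the 62 log2 changes of CAC over Con counted above, these turned their sign. Members outside that set are not listed here, though some turned too, such as Dnajb14, Dnajc18 and Dnajc30 at 8 weeks after rescaling. After rescaling, the 6- and 8-week values were -0.093 and -0.025 for Dnaja1, -0.35 and -0.37 for Dnajb5, -0.21 and -0.46 for Hspb8, -0.39 and -0.51 for Hspd1, and -0.062 and -0.026 for Hspe1. At 6 weeks alone they were -0.11 for Dnajb1, -0.13 for Dnajb6, -0.28 for Hspa9 and -0.020 for Hspb6, and at 8 weeks alone -0.085 for Hspa13, -0.14 for Hspa5 and -0.065 for Hspa8. Without mitochondrially encoded genes they were -0.16 and -0.15 for Dnajb5, -0.0052 and -0.23 for Hspb8 and -0.19 and -0.29 for Hspd1 at 6 and 8 weeks, and -0.077 for Hspa9 at 6 weeks. Without the 3 libraries farthest out, the 8-week values were 0.29 for Hspb2, 0.034 for Hspb3 and 0.18 for Hspb6. With libraries left out singly, the 8-week values ranged over -0.36 to 0.023 for Hspb2, -0.26 to 0.047 for Hspb6, -0.036 to 0.16 for Hspb8 and -0.031 to 0.032 for Hspd1, and the 6-week values over -0.0086 to 0.083 for Hspd1. The cause was not tested where the construction of the alternative does not give it.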
